A study of Homo sapiens with 6 samples.

Results

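The genes described are 42 genes of glutathione, thioredoxin and NRF2 biology, named one by one as regulators and targets of NRF2, enzymes that make or use glutathione, thioredoxins and peroxiredoxins, and found by symbol among the 60675 genes of a count table. All 42 had a row, and 41 of them passed the filter on low counts and were tested among 18267 genes. The table holds total RNA sequencing of HEK293, a human line derived from embryonic kidney, with 3 libraries labelled MOCS2 knockdown by RNAi and 3 labelled control with a wild-type genotype. MOCS2 encodes both subunits of molybdopterin synthase, which builds the molybdenum cofactor, a cofactor that sulfite oxidase needs to finish the breakdown of sulfur amino acids. Sulfur amino acid catabolism is named in the study's title, and cysteine, one of its substrates, is also a building block of glutathione. Both groups grew in high-glucose DMEM with fetal bovine serum and Geneticin, a selection drug. The labels leave unsaid which RNAi construct was used, what the control cells carried and whether the knockdown cells were a pool or a clone. The labels also do not say that replicates were separate cultures, so p-values measure the spread between these libraries, which may be technical.

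NRF2 (gene NFE2L2) is a transcription factor that switches on detoxification and antioxidant genes through antioxidant response elements, short DNA motifs in their control regions. KEAP1 holds NRF2 in the cytosol and delivers it for degradation until oxidants or electrophiles modify its cysteines. Glutathione, a cysteine-containing tripeptide, and thioredoxin, a small redox protein, are the main carriers of reducing power in the cell, and NADPH-dependent reductases restore both.

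Reads assigned to genes numbered 17958632 to 19362299 in the libraries labelled knockdown and 19895547 to 22171106 in the controls. MOCS2 itself stood at 69.8, 58.9 and 59.9 CPM (reads per 1e6 gene reads, scaled by TMM) in the libraries labelled knockdown and at 57.8, 66.6 and 65.6 CPM in the controls, which differed by -0.01 on the log2 scale (standard error 0.14 and edgeR adjusted p 0.976). The targeted RNA was therefore not measurably lower, and every direction given below compares libraries by their labels alone. Knockdown 2 stood apart in read placement, with 37.5% of uniquely aligned reads outside genes and 3.39% of gene counts in mitochondrially encoded genes, against 21.5% to 25% and 1.39% to 2.32% in the other 5 libraries. The 8 HEK293 markers used averaged at least 1 CPM, with summed levels of 1787 to 2473 CPM in the libraries labelled knockdown and 1293 to 1768 CPM in the controls. VIM made up most of that sum, with 1017 to 1527 CPM in the libraries labelled knockdown and 677 to 922 CPM in the controls. LHX1, at 4.25 to 8.03 against 10.2 to 12.5 CPM, and NEFL, at 116 to 134 against 157 to 167 CPM, were lower without overlap. The 3 hepatocyte and the 3 erythroid markers summed to at most 0.705 CPM in any library. The 5 fibroblast markers summed to 8.29 to 13.9 CPM in the libraries labelled knockdown and 16.8 to 28.8 CPM in the controls, with LUM at means of 1.9 ± 0.685 and 11.9 ± 4.71 CPM and PDGFRA at 0.891 ± 0.528 and 3.51 ± 1.72 CPM (SD, n = 3 each), both without overlap, while COL1A1, COL1A2 and DCN overlapped. The 4 leukocyte markers summed to 3.8 to 5.47 CPM in the libraries labelled knockdown and 2.92 to 5.3 CPM in the controls, with CD3E at 0 in 2 libraries labelled knockdown and 2 controls. The part of these differences in the results below was not tested.

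Most of the antioxidant genes stood lower in the libraries labelled knockdown, led by PIR, GLRX, GSS and MGST3, and NFE2L2, KEAP1 and NFE2L1 did not. TXNRD1 and SOD2 stood above all controls. Of the 41 tested genes, 31 had a negative log2 fold change (75.6%, against 48.2% of all genes tested), and the median was -0.33, against 0.02 over all genes tested. In bulk RNA, fewer cells of a kind and less RNA per cell cannot be told apart. By edgeR's quasi-likelihood test with Benjamini-Hochberg adjustment over all genes, 0 of the 41 passed at an adjusted p of 0.05, as did 0 of all 18267 (0%). At an unadjusted p under 0.05, 13 of the 41 passed (31.7%, against 20.5% of all genes). Of these, 12 were lower (29.3%, against 10.6% of all genes) and 1 was higher (2.44%, against 9.93%). The groups did not overlap for 15 of the 41 (36.6%, against 26.8% of all genes). The 3 libraries labelled knockdown lay entirely below the 3 controls for 13 genes (31.7%, against 14.3% of all genes) and entirely above them for 2 (4.88%, against 12.5%). DESeq2 called 4 of the 41 (against 6.27% of all genes), all of them lower (9.76%, against 3.21% of all genes) and 0 higher (against 3.06%). Limma voom called 0 of the 41 (against 0%), with 13 at an unadjusted p under 0.05 (against 20.9%).

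Single libraries moved these counts. Without knockdown 3, edgeR called 13 of 42 tested genes lower (31%, against 8.3% of all genes) and 0 higher (against 6.46%), and 22 had an unadjusted p under 0.05 (52.4%, against 31.1%). Without control 3, 6 did (14.3%, against 14.6%), and without knockdown 1 also 6 (14.6%, against 12.4%). Without knockdown 2, the library that stood apart, 17 of 42 did (40.5%, against 22.1%), 11 of them lower (26.2%, against 11.2%) and 6 higher (14.3%, against 10.9%), so the low share of higher genes was not seen without that library. Positive log2 fold changes then numbered 17 of the 42, and 59.5% were negative, against 51.2% of all genes. The median log2 fold change was -0.12 without knockdown 2 and -0.47 without knockdown 3.

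**Figure D1:**
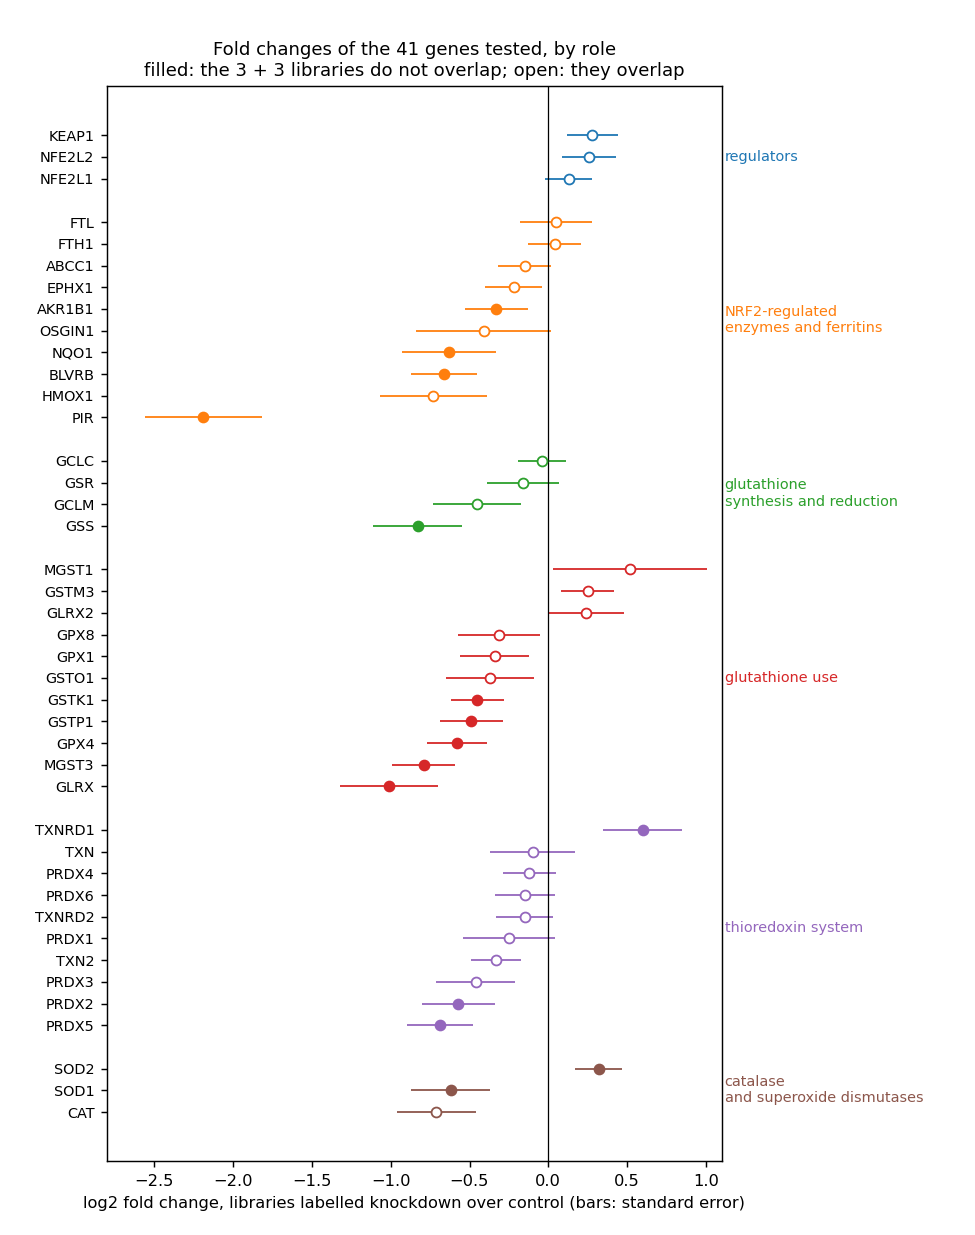
Log2 fold change (x axis) of each of the 41 tested genes (y axis, grouped and coloured by role), libraries labelled knockdown over control, with standard errors as bars. Filled points mark genes whose 3 libraries labelled knockdown do not overlap the 3 controls. PIR lies farthest left at -2.19, TXNRD1 farthest right at 0.60, and all 3 regulators lie right of 0.

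The spread between the 3 libraries labelled knockdown was wide. Set against the mean of the controls, the 41 genes had median log2 differences of -0.30 in knockdown 1, -0.81 in knockdown 2 and -0.03 in knockdown 3, and of -0.02, -0.02 and 0.06 in control 1, 2 and 3. Over all genes tested the same medians lay between 0.00 and 0.01 in all 6 libraries. Knockdown 2 held the lowest of the 6 values for 26 of the 41 genes (63.4%, against 25.6% of all genes tested) and knockdown 3 for 0 (against 12.9%). In knockdown 2, 24 of the 41 lay more than 0.5 log2 units below the control mean (against 17.4% of all genes) and 0 lay more than 0.5 above it (against 18.4%). In knockdown 1 these counts were 15 and 5 (against 18.7% and 15% of all genes). In knockdown 3 they were 2 and 1 (against 7.81% and 4.18%), no more than the share over all genes. The library with the lowest values was thus the one with the most reads outside genes, whose part in the result was not tested, while 23 of the 41 genes were below all 3 controls in knockdown 1 (56.1%, against 38.5% of all genes) and 16 in knockdown 3 (39%, against 31.7%).

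**Figure D2:**
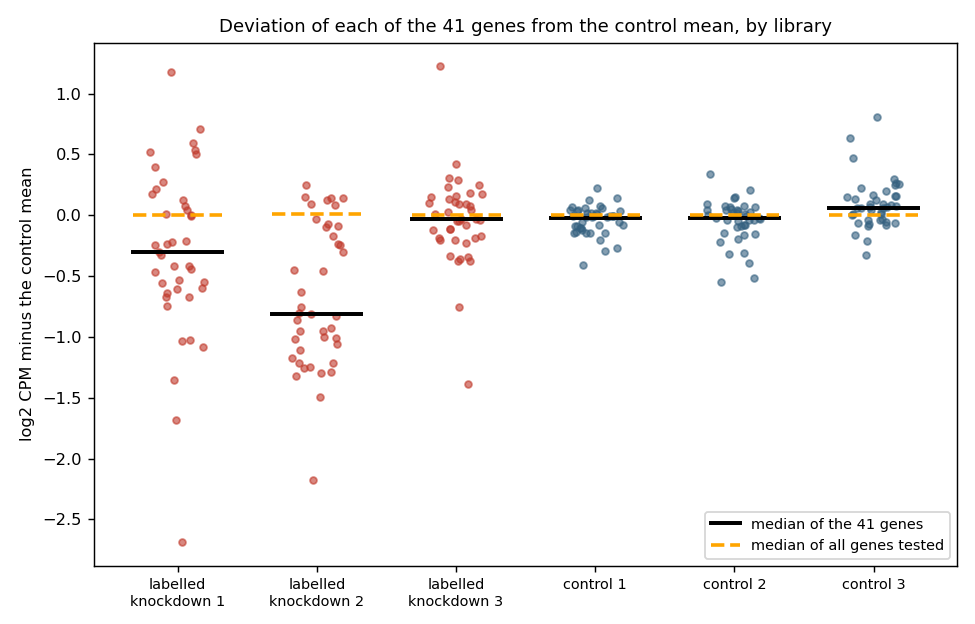
Difference of log2 CPM from the control mean (y axis) for each of the 41 genes (points) in each library (x axis). Black bars are the medians of the 41 genes and dashed orange bars those of all genes tested. The black bar lies at -0.81 in knockdown 2 and -0.30 in knockdown 1, and within 0.06 of 0 in knockdown 3 and the controls.

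The 3 regulators had small positive log2 fold changes in RNA, and the groups overlapped for all 3. Without knockdown 1 these values were 0.05 to 0.18. NFE2L2, which encodes NRF2, had 96.9, 68.6 and 98.7 CPM in the libraries labelled knockdown and 73.3, 72.3 and 74.7 CPM in the controls. Knockdown 1 and 3 lay above all controls and knockdown 2 below them, and the log2 fold change of 0.26 (standard error 0.17) did not pass (edgeR adjusted p = 0.391). KEAP1, the adaptor that sends NRF2 for degradation, had 65.7, 48.0 and 51.0 CPM against 43.5, 48.1 and 44.0 CPM in the controls. Only knockdown 2 lay within the control range, and the log2 fold change of the gene was 0.28 (standard error 0.16 and edgeR adjusted p 0.346). NFE2L1, a related factor that controls proteasome genes and is the most abundant of the 3 per length, had 309.7, 281 and 251 CPM against 255, 264 and 251 CPM in the controls, and the groups overlapped (0.13, standard error 0.15 and edgeR adjusted p 0.648). NRF2 activity is set largely by the stability of its protein, which these libraries do not measure.

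PIR, or pirin, an iron-binding nuclear protein and an NRF2 target in human cells, differed most of the 42. PIR (ENSG00000087842, chromosome X, 15384799 to 15493564, minus strand, GRCh38) had 1.41, 2.23 and 4.22 CPM in the libraries labelled knockdown and 11.7, 15 and 9.31 CPM in the controls. The highest library labelled knockdown was below the lowest control. The means were 2.62 ± 1.44 and 12 ± 2.88 CPM (SD, n = 3 each), and the log2 fold change was -2.19 (standard error 0.37), with an adjusted p of 0.0659 by edgeR and 5.10e-07 by DESeq2. Leaving out each library in turn gave values from -2.72 to -1.90. The edgeR adjusted p was 0.000985 without knockdown 3, the one nearest the controls, and 0.094 to 0.389 without any other library. PIR overlaps BMX on the opposite strand, so reads of the pair are kept apart only if strand was used in counting, which the labels do not state. Other genes described here share this limit, among them GLRX (with RHOBTB3), GLRX2 (with TROVE2), PRDX1 (with MMACHC) and NQO1. NFE2L2, PRDX2 and SOD1 overlap annotated genes on both strands, so strand alone does not keep their reads apart.

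NQO1, BLVRB and AKR1B1 also lay below all controls in all 3 libraries labelled knockdown, by less than PIR did. NQO1, a quinone reductase widely used as a readout of NRF2, had 5.77, 3.03 and 7.02 CPM in the libraries labelled knockdown and 8.27, 8.53 and 7.65 CPM in the controls. The groups did not overlap, and the log2 fold change was -0.63 (standard error 0.30 and edgeR adjusted p 0.261). BLVRB, a biliverdin and flavin reductase, had 27.2, 20.4 and 32.8 CPM against 39.5, 35.8 and 51.3 CPM in the controls, again without overlap (-0.66, standard error 0.21 and edgeR adjusted p 0.134). AKR1B1, an aldose reductase, had 80.1, 51.3 and 91.3 CPM against 93.3, 93.2 and 93.7 CPM in the controls. Its controls agreed closely, and the gap to knockdown 3 was small (-0.33, standard error 0.20 and edgeR adjusted p 0.366).

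Heme oxygenase, HMOX1, which breaks down heme and releases iron, varied within both groups. It had 16.1, 39.3 and 24.7 CPM in the libraries labelled knockdown and 38.7, 29.2 and 65.2 CPM in the controls, so the groups overlapped (-0.73, standard error 0.34 and edgeR adjusted p 0.255). SRXN1, sulfiredoxin, which repairs overoxidized peroxiredoxins, was too low to be tested, at 1.47, 0.319 and 0.317 CPM against 0.494, 0.539 and 0.403 CPM. OSGIN1, a growth inhibitor induced by oxidants, averaged 0.936 ± 0.474 and 1.25 ± 0.334 CPM. The xenobiotic hydrolase EPHX1 averaged 26.4 ± 4.66 and 30.8 ± 3.36 CPM, and ABCC1, an exporter of glutathione conjugates, 41.4 ± 8.59 and 45.9 ± 3.57 CPM (SD, n = 3 each, libraries labelled knockdown before controls). None of these separated the groups.

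The ferritin chains, which store iron and are also NRF2 targets, were level between groups. FTL, the most abundant of the 42 per length at a mean of 2863 TPM (counts per kilobase of exon, scaled to a common sum), had 883, 743 and 832 CPM in the libraries labelled knockdown and 801, 521 and 1054 CPM in the controls. Its controls spanned more than the libraries labelled knockdown did (log2 fold change 0.05, standard error 0.23). FTH1, the heavy chain with ferroxidase activity, averaged 168 ± 6.41 and 163 ± 32.2 CPM. Both signs turned negative without control 2. FTH1 has 25 pseudogenes by name in the annotation and FTL 16, so their counts depend on how reads with several matches were handled and are uncertain. AKR1B1 and TXN have 7 named pseudogenes each, PRDX2 and PRDX3 have 4 each, and SOD1 and GLRX have 3 each, with the same limit.

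Promoters are shown for the 3 tested genes with the smallest p, PIR, MGST3 and PRDX5, and, chosen after their values were seen, for GSTP1, which holds the element and was lower, and TXNRD1, which holds it and was higher. The antioxidant response element core was searched as TGACNNNGC and its variant as TGAGNNNGC on both strands. A single RefSeq window of GRCh38.p14 was used per gene, from 250 bases before to 50 bases after an annotated start. Positions were counted from 0 at the base that follows the 250 upstream bases. That start can lie far from the end of the gene span used for counting. The TXNRD1 window, for example, lies inside the span of 104215779 to 104350305. Other start sites of a gene were not used. A window was found for 33 of the 42 genes, not for ABCC1, FTH1, GSR, GSS, HMOX1, PRDX1, PRDX6, SOD1 and TXN2. The core was in 7 of the 33 (21.2%, against 13.3% of 35116 promoters) and the variant in 11 (33.3%, against 18.3%). Capitals mark the matches; each window is written 5′ to 3′ on the strand of its gene. In PIR (chrX:15493284-15493583, minus strand) the core lies on the opposite strand from 26 to 34:
PIR: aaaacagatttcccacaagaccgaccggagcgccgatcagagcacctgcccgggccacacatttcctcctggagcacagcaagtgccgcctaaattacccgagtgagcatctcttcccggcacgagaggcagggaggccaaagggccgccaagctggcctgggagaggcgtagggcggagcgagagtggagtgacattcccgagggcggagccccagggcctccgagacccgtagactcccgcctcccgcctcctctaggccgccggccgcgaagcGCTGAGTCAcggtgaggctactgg
In MGST3 (chr1:165630984-165631283, plus strand) the variant lies from -124 to -116:
MGST3: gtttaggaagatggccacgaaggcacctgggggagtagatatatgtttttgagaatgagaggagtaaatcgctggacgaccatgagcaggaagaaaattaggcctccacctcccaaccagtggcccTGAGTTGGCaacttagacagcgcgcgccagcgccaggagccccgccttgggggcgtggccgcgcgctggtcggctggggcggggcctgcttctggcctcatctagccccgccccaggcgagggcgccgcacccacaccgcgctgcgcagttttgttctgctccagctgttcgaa
In PRDX5 (chr11:64318036-64318335, plus strand) neither motif was found in this window:
PRDX5: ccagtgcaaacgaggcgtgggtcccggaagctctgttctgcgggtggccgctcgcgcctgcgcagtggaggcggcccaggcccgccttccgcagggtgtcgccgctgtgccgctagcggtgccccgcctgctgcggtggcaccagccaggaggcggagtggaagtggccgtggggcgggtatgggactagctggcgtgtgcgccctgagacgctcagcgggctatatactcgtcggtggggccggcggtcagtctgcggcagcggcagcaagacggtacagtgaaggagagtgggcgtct
In GSTP1 (chr11:67583562-67583861, plus strand) the core TGACTCAGC lies from -66 to -58 and the variant from 34 to 42:
GSTP1: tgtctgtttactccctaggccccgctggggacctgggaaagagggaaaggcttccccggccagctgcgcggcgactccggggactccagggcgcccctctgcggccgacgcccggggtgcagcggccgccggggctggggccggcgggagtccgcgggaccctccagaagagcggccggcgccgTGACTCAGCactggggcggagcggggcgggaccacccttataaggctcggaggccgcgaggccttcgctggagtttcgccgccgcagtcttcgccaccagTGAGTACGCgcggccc
In TXNRD1 (chr12:104286782-104287081, plus strand) the variant lies from -198 to -190 and the core, on the opposite strand, from -102 to -94:
TXNRD1: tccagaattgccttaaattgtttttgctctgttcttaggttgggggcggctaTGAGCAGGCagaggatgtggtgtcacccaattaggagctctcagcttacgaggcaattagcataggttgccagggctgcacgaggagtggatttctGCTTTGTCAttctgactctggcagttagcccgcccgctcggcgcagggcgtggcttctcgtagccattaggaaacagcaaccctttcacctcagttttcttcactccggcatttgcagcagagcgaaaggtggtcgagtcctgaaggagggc
Genes with the core were thus found on both sides of 0. KEAP1, with log2 fold change 0.28, and MGST1, with 0.52, hold it, as do GCLM (-0.45) and GSTO1 (-0.37). A match is only a stretch of letters and does not show binding.

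Glutathione is made in a pair of steps and recycled by a reductase, and the second step differed most. GSS, glutathione synthetase, which adds glycine (ENSG00000100983, chromosome 20, 34928433 to 34956027, minus strand), had 18.6, 13.9 and 35.1 CPM in the libraries labelled knockdown and 37.6, 40.9 and 41.8 CPM in the controls. All 3 were below the controls, knockdown 3 narrowly (log2 fold change -0.83, standard error 0.28 and edgeR adjusted p 0.149), and leaving out each library gave -1.31 to -0.58. The edgeR adjusted p was 0.00202 without knockdown 3 and 0.215 to 0.444 without any other library. GCLC, the catalytic subunit of glutamate-cysteine ligase, which carries out the rate-limiting first step, averaged 100.3 ± 12.6 and 103 ± 3.8 CPM (SD, n = 3 each; -0.04, standard error 0.15). GCLM, the modifier subunit of that ligase, had 35.8, 20.1 and 52.2 CPM against 51.3, 54.1 and 42.1 CPM, with knockdown 3 inside the control range (-0.45, standard error 0.28 and edgeR adjusted p 0.389). GSR, glutathione reductase and the most abundant of this group per length, had 119, 67.0 and 132 CPM against 119, 131 and 105 CPM, and only knockdown 2 was below the controls (-0.16, standard error 0.23).

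Of 11 genes that use glutathione, 5 were lower at an unadjusted edgeR p under 0.05 (45.5%, against 10.6% of all genes) and 0 were higher (against 9.93%). All 5 separated the groups (45.5%, against 14.3% of all genes lower without overlap). The lower genes numbered 3 without knockdown 1, control 2 or control 3 (27.3%, against 5.6% to 7.58% of all genes). They numbered 4 without control 1 (36.4%, against 7.33%) and 8 without knockdown 3 (72.7%, against 16.4%). Without knockdown 2, 4 were lower (36.4%, against 11.2%) and 2 were higher (18.2%, against 10.9%). MGST3, a microsomal glutathione transferase and peroxidase (ENSG00000143198, chromosome 1, 165630861 to 165661796, plus strand), had 31.4, 31.9 and 50.0 CPM in the libraries labelled knockdown and 58.5, 61.5 and 76.0 CPM in the controls. The log2 fold change was -0.79 (standard error 0.20), with an adjusted p of 0.102 by edgeR and 0.0166 by DESeq2. GLRX, cytosolic glutaredoxin, which removes glutathione from protein thiols (ENSG00000173221, chromosome 5, 95751319 to 95823005, minus strand), had 5.15, 7.28 and 13.8 CPM against 16.3, 17.0 and 19.7 CPM. It was lowest in knockdown 1 (-1.01, standard error 0.31), with an adjusted p of 0.129 by edgeR and 0.0261 by DESeq2. The other 3 were more abundant or closer to the controls.

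GPX4, the selenoprotein that reduces lipid hydroperoxides in membranes and guards against ferroptosis, had 139.7, 115 and 193 CPM in the libraries labelled knockdown and 202, 231 and 237 CPM in the controls. Knockdown 3 was just under the lowest control (log2 fold change -0.58, standard error 0.19 and edgeR adjusted p 0.146). GSTP1, a cytosolic glutathione transferase, had 128, 98.6 and 174 CPM against 181, 184 and 199.5 CPM (-0.49, standard error 0.20 and edgeR adjusted p 0.199). GSTK1, a mitochondrial and peroxisomal transferase, had 25.9, 36.8 and 33.6 CPM against 39.5, 45.1 and 46.6 CPM (-0.45, standard error 0.17 and edgeR adjusted p 0.182). GSTK1 was lowest in knockdown 1, and GPX4 and GSTP1 in knockdown 2.

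The remaining 6 of this group overlapped. GPX1, the abundant cytosolic peroxidase, averaged 87.2 ± 27.8 and 110 ± 12.2 CPM, and GPX8, an endoplasmic reticulum peroxidase, 47.4 ± 21.4 and 58.8 ± 2.62 CPM. GSTO1, an omega-class transferase, averaged 47.5 ± 21.0 and 61.3 ± 3.96 CPM (SD, n = 3 each, libraries labelled knockdown before controls). GSTM3, MGST1 and GLRX2, the mitochondrial glutaredoxin, had positive log2 fold changes of 0.25, 0.52 and 0.24, none of them past the test. MGST1 rested on low and scattered values, at 10.5, 3.51 and 15.2 CPM against 4.58, 4.63 and 11.3 CPM.

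**Figure D3:**
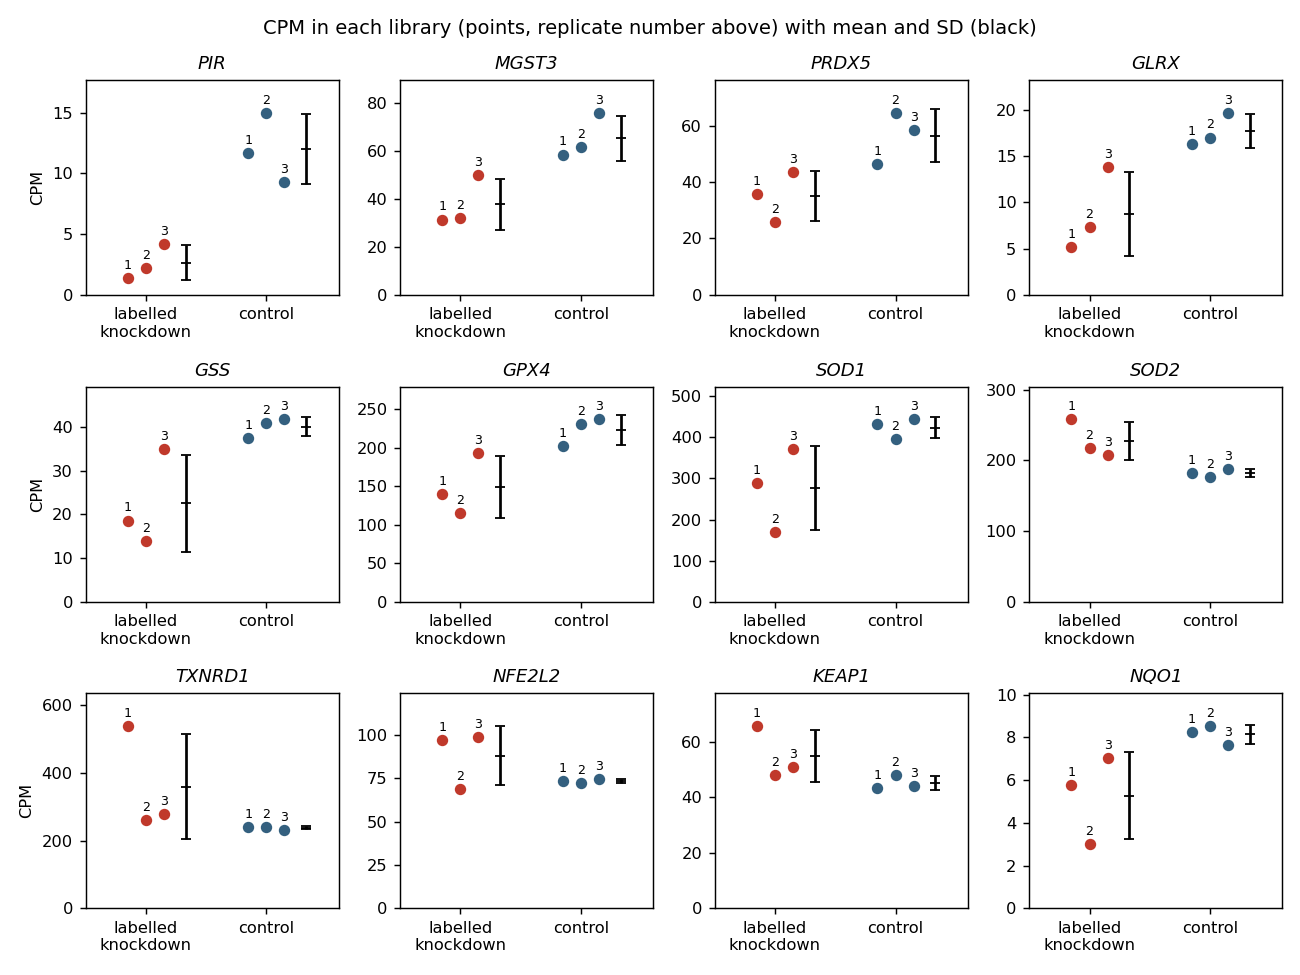
CPM (y axis, from 0) of 12 genes in each library, labelled knockdown on the left and control on the right of each panel, with the replicate number above each point and the mean ± SD in black. For PIR, MGST3, PRDX5, GLRX, GSS, GPX4, NQO1 and SOD1, knockdown 3 lies nearest the controls, as for SOD1 at 372 CPM against 395 to 444 CPM, and TXNRD1 is highest in knockdown 1 at 538 CPM.

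Of 10 genes of the thioredoxin system, TXNRD1 lay above all controls (10%, against 12.5% of all genes). PRDX2 and PRDX5 lay below them (20%, against 14.3%), and the other 7 overlapped. The 30% without overlap was near the 26.8% over all genes. Negative log2 fold changes numbered 9 of the 10 (90%, against 48.2% of all genes), but 5 of the 10 without knockdown 2 (50%, against 51.2%). TXNRD1, the selenoenzyme that reduces thioredoxin with NADPH and an NRF2 target (ENSG00000198431, chromosome 12, 104215779 to 104350305, plus strand), had 538, 262 and 279.5 CPM in the libraries labelled knockdown and 241, 241 and 232 CPM in the controls. The groups did not overlap, but most of the difference lay in knockdown 1 (log2 fold change 0.60, standard error 0.25 and edgeR adjusted p 0.217), and the value was 0.18 without it. TXN, cytosolic thioredoxin, averaged 133 ± 54.3 and 142 ± 14.1 CPM, with knockdown 2 at 70.8 CPM and the other 5 libraries between 127 and 169 CPM. The mitochondrial pair TXN2 and TXNRD2 averaged 44.7 ± 6.16 and 56.2 ± 5.56 CPM for TXN2, and 24.1 ± 2.42 and 26.7 ± 5.19 CPM for TXNRD2 (SD, n = 3 each, libraries labelled knockdown before controls). TXNRD1 shares its span with EID3 on the same strand, and its count is uncertain to that extent.

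All 6 peroxiredoxins, which destroy hydrogen peroxide and draw their electrons mainly from thioredoxin, had negative log2 fold changes, from -0.69 to -0.12, although those of PRDX1, PRDX4 and PRDX6 turned positive without knockdown 2. PRDX5, found in mitochondria, peroxisomes and cytosol (ENSG00000126432, chromosome 11, 64318088 to 64321811, plus strand), had 35.7, 25.7 and 43.5 CPM in the libraries labelled knockdown and 46.4, 64.7 and 58.5 CPM in the controls, without overlap (-0.69, standard error 0.21), with an adjusted p of 0.12 by edgeR and 0.0449 by DESeq2. PRDX2, a cytosolic peroxiredoxin, had 144, 96.6 and 201 CPM against 206, 229.8 and 220.1 CPM, also without overlap (-0.57, standard error 0.23 and edgeR adjusted p 0.203). PRDX1, the most abundant of the system per length at a mean of 804 TPM, had 432, 181 and 451 CPM against 463, 396 and 402 CPM. Its only low value was knockdown 2, and the log2 fold change was 0.06 without that library. PRDX3, of the mitochondrial matrix, averaged 147 ± 56.5 and 202 ± 11.8 CPM. PRDX4, of the endoplasmic reticulum, averaged 145 ± 26.9 and 158 ± 8.83 CPM, and PRDX6, which uses glutathione, 192 ± 47.9 and 214 ± 8.83 CPM (SD, n = 3 each, libraries labelled knockdown before controls). Without knockdown 2 the log2 fold changes of PRDX4 and PRDX6 were 0.01 and 0.03.

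Catalase and the superoxide dismutases split. CAT, the peroxisomal enzyme that breaks down hydrogen peroxide, had 17.4, 17.1 and 31.9 CPM in the libraries labelled knockdown and 31.1, 36.1 and 41.5 CPM in the controls. Knockdown 3 lay inside the control range (log2 fold change -0.71, standard error 0.25 and edgeR adjusted p 0.151). SOD1, the copper-zinc enzyme of the cytosol and the most abundant of the 3 per length, had 288, 169 and 372 CPM against 433, 395 and 444 CPM, without overlap (-0.62, standard error 0.25 and edgeR adjusted p 0.194). SOD2, the manganese enzyme of mitochondria, had 258, 217 and 208 CPM against 182, 177 and 188 CPM, higher without overlap (0.32, standard error 0.15 and edgeR adjusted p 0.254). SOD2 overlaps WTAP on the opposite strand and a second gene model of the same name, so its count is uncertain.

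Ratios of related genes within a library do not depend on how libraries are scaled, and 6 were formed after the values above were seen. The log2 ratio of SOD1 to SOD2 was 0.16, -0.36 and 0.84 in the libraries labelled knockdown and 1.25, 1.16 and 1.24 in the controls. The groups did not overlap, and the means were 0.21 ± 0.60 and 1.22 ± 0.05 log2 units (SD, n = 3 each). That of cytosolic to mitochondrial glutaredoxin, GLRX to GLRX2, was -2.01, -0.57 and -0.29 against 0.04, 0.50 and 0.61, also without overlap, a difference of -1.34. Both had an exact two-sided permutation p of 0.1, the smallest that 3 libraries against 3 allow (0.3 after Benjamini-Hochberg adjustment over the 6 ratios). Since SOD1 already lay below all controls and SOD2 above them, the outcome for their ratio was fixed and adds no evidence. GLRX too already lay below all controls, so its ratio to GLRX2 is not independent of that result. The adjustment does not cover the choice of pairs after the values were seen.

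The other 4 ratios overlapped between groups. The subunit ratio GCLM to GCLC had means of -1.57 ± 0.60 and -1.08 ± 0.24 (SD, n = 3 each), and TXNRD1 to TXNRD2 of 3.82 ± 0.67 and 3.17 ± 0.31, in the libraries labelled knockdown and the controls. Each had an exact permutation p of 0.3. TXN to TXN2 and FTL to FTH1 differed by 0.14 and 0.04 (exact permutation p = 0.7 each).

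**Figure D4:**
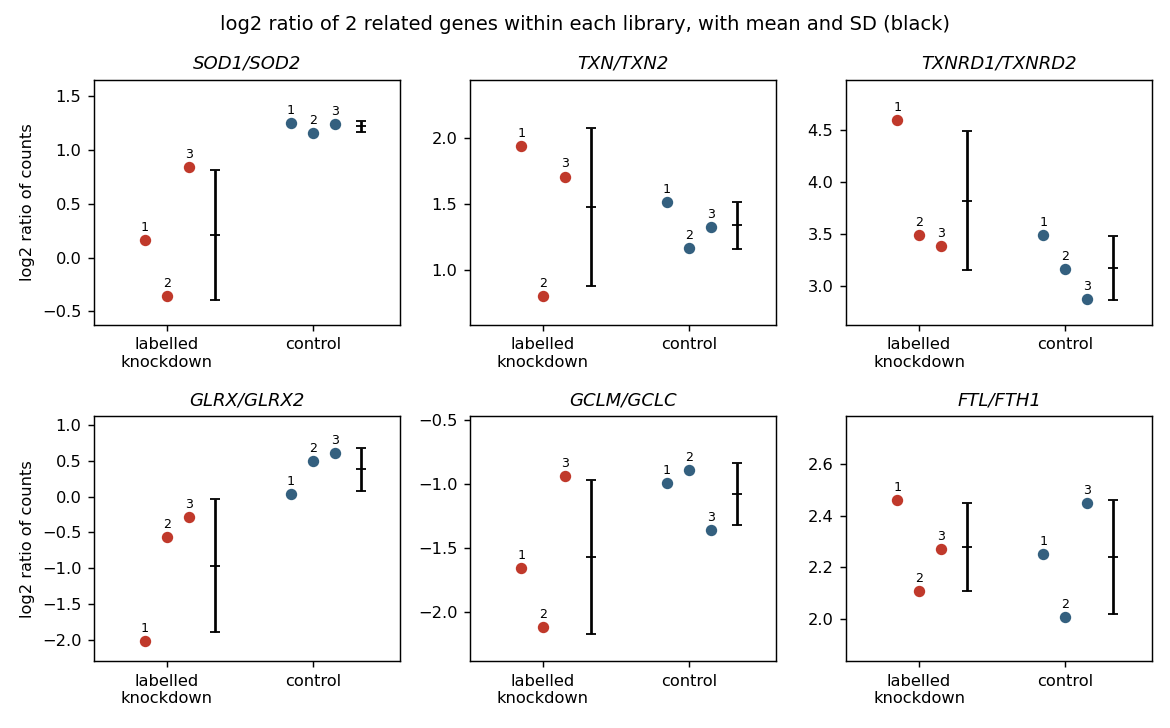
Log2 ratio of the counts of 2 related genes (y axis, own scale per panel) in each library, labelled knockdown on the left and control on the right, with replicate numbers above the points and the mean ± SD in black. SOD1/SOD2 and GLRX/GLRX2 lie below all controls in all 3 libraries labelled knockdown, and the other 4 ratios overlap.

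Among 102 further genes of the same biology, 101 had a row and 90 were tested. At an unadjusted edgeR p under 0.05, 16 were lower (17.8%, against 10.6% of all genes) and 5 were higher (5.56%, against 9.93%), with a median log2 fold change of -0.13, and 0 passed edgeR's adjusted threshold. DESeq2 called 7 of the 90 lower (7.78%, against 3.21% of all genes) and 0 higher (against 3.06%). The edgeR counts moved with single libraries, to 13 lower (14.4%, against 11.2%) and 11 higher (12.2%, against 10.9%) without knockdown 2, and to 33 lower (36.3%, against 16.4%) and 10 higher (11%, against 14.7%) without knockdown 3. With any other single library left out, 11 to 15 were lower (12.1% to 16.7%, against 5.6% to 7.58% of all genes). In those fits 1 to 4 were higher (1.1% to 4.4%, against 4.96% to 7.03%). By the smallest p, the lower genes were led by FECH, ferrochelatase, the last enzyme of heme synthesis, at 32.9, 32.1 and 62.6 CPM against 77.5, 98.0 and 86.1 CPM in the controls (-1.04, standard error 0.25 and edgeR adjusted p 0.0938). GGT1 and CNDP2, which act in turn to break extracellular glutathione into amino acids, were lower too, GGT1 with means of 6.77 ± 1.04 and 12.5 ± 1.91 CPM and CNDP2 with means of 57.7 ± 6.97 and 86.7 ± 7.14 CPM. SELENOH, a nuclear selenoprotein, averaged 23.3 ± 1.6 and 34 ± 3.7 CPM (SD, n = 3 each, libraries labelled knockdown before controls). The groups of these 4 genes did not overlap.

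The higher genes were led by MAFF, a small MAF protein that pairs with NRF2 on DNA, at 23.1, 11.5 and 2.9 CPM against 3.51, 1.48 and 3.62 CPM in the controls. Knockdown 3 lay inside the control range, and the log2 fold change of 2.12 (standard error 0.61 and edgeR adjusted p 0.113) was 1.33 without knockdown 1 and 2.59 without knockdown 3. BACH1, a repressor that competes with NRF2 for its sites, had 222, 153 and 133 CPM against 120.3, 127 and 126 CPM, above all controls in all 3 libraries (0.44, standard error 0.19 and edgeR adjusted p 0.226). GLRX5, a mitochondrial glutaredoxin of iron-sulfur cluster assembly, averaged 71 ± 5.05 and 51.1 ± 6.85 CPM and TMX1, a thioredoxin-related protein of the endoplasmic reticulum, 153 ± 22.4 and 114 ± 16.7 CPM, without overlap in either (SD, n = 3 each, libraries labelled knockdown before controls).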

How the data were processed

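Total RNA from HEK293 cells was made into stranded libraries after ribosomal RNA removal, per the labels' protocols. The authors deposited raw read counts per Ensembl gene for 3 knockdown and 3 control libraries, without normalization. The submitters' processing notes name hg38, HTSeq, TopHat2 2.0.13 and bcl2fastq 2.18, with no annotation release, strand setting or read filter. Library sizes and tests exclude the 5 special HTSeq rows; reads outside genes were 21.5% to 37.5% of unique reads.

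Symbols, coordinates and exon lengths came from GENCODE 29 (GRCh38), which matched 57055 identifiers. Group and replicate come from the sample titles. edgeR 4.0.16 in R 4.3.3 tested knockdown against control (two-sided quasi-likelihood test, TMM, filterByExpr, Benjamini-Hochberg over all 18267 genes, threshold 0.05). Standard errors are the log2 fold change over the square root of F; CPM are TMM-scaled; per-library log2 differences used CPM plus 0.5. The test was also run on simulated counts that had the same spread in both groups. In the real libraries the median SD of log2 CPM was 0.282 in those labelled knockdown and 0.149 in the controls. The simulated counts therefore do not cover this difference in spread. Replicates of a group differed beyond sampling noise (chi-square per degree of freedom 11.6 to 75.3).

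Alternatives were DESeq2-style and upper-quartile factors, DESeq2 1.42.0, voom of limma 3.58.1, a fit without filter, a minimum of 1 CPM in 3 libraries, a block by replicate number, and each library left out in turn. Genes with values per library were the regulators, those with an unadjusted p under 0.05 or no overlap, and the most abundant of each role, with HMOX1, SRXN1, GCLM, MGST1 and PRDX1 for context. The members, the lists and this rule were chosen with earlier results of these data known; the 6 ratios were added after the values were seen. The design planned protein sequences too, which are not used here, and 1 more marker, which is not reported here.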

Additional observations from a re-analysis of the deposited data

How the results depend on the processing

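Choices of scaling, filter and test left 0 of the 41 genes called, with 2 exceptions. edgeR with DESeq2-style factors called 0 of the 41 and 0 of all 18267 genes. DESeq2 called 4 (PIR, MGST3, GLRX and PRDX5; 9.76%) and 1145 of all 18267 genes (6.27%). A fit without the filter covered 43251 genes and called 1574 of them. It called 9 of the 42 lower (21.4%, against 2.03% of all genes) and 0 higher (against 1.6%). All genes here include the many low-count genes that the filter removes, while 41 of the 42 pass it, so these shares are not like for like. Over all genes, 11.6% had an unadjusted p under 0.05 in this fit, against 20.5% with the filter. MOCS2 turned to 0.01 with upper-quartile factors. With the replicate block 19 genes were called over all genes and 0 of the 41, with 16 at an unadjusted p under 0.05 (39%, against 19.3% of all genes). Whether the numbers pair the libraries is not stated in the labels. Deviations of same-numbered libraries correlated at 0.12, -0.17 and -0.13, and 2 of the 3 knockdown libraries correlated best with another number. These values showed no sign of pairs, but so few libraries cannot settle it.

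Leaving out each library gave 0 to 2815 genes called in all and 0 to 13 of these genes, 6 to 22 at an unadjusted p under 0.05 (all genes 10.6% to 31.1%), 16 to 23 without overlap (all genes 31.4% to 47.3%), and MOCS2 values of -0.09 to 0.03. The count of 13 and of 2815 arose without knockdown 3; the cause was not tested. Of 41 genes, 8 changed sign in 9 of 533 values: FTL (-0.18 to 0.30), FTH1 (-0.11 to 0.17), GCLC (-0.14 to 0.03), GSR (-0.36 to 0.07), TXN (-0.30 to 0.20), PRDX1 (-0.46 to 0.06), PRDX4 (-0.23 to 0.01) and PRDX6 (-0.28 to 0.03). The log2 ratio differences of TXN/TXN2 (-0.09 to 0.48) and FTL/FTH1 (-0.07 to 0.15) changed sign, and those of SOD1/SOD2 (-1.32 to -0.72) and GLRX/GLRX2 (-1.67 to -0.81) did not. Depth limits SRXN1 and OSGIN1, near or under 1 CPM. Counts per library were also low for PIR (25 to 335 reads), NQO1 (57 to 190), MGST1 (66 to 289) and GLRX (91 to 391).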
